A study of Rattus norvegicus with 12 samples.

Results

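The voltage-gated and potassium ion channels of the rat retina are described here, from the input RNA levels and the m6A peaks of their genes 12 h after traumatic optic neuropathy (TON). The genes were chosen by name alone: every row of the expression table whose symbol starts with Kcn or Cacn, or with Hcn or Scn followed by a digit, except Kcnj10, which was left out. This gave 140 rows of 22714, under 137 gene names, because Kcnk13, Kcnk6 and Kcnn2 have more than 1 row each. The same names carry 517 of the 79857 m6A peaks. Male Sprague-Dawley rats aged 7 to 8 weeks were used in both groups. In the TON group the optic nerve was clamped 2 mm behind the eye for 10 s with forceps of 40 g holding force. The sham group had the same anaesthesia and incision without the clamp. Each sample is a pool from 4 rats, and the 3 pools of a group (sham 1 to 3, TON 4 to 6) each gave 1 immunoprecipitated library and 1 input library, so that p-values measure the spread between pools. Both groups are whole retina, and in whole tissue fewer cells of a type and less RNA per cell cannot be told apart.

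Voltage-gated channels open or close with the membrane potential. Sodium channels carry the rising phase of the action potential, calcium channels couple depolarization to transmitter release, and potassium channels bring the membrane back to rest or hold it there. In the retina only some cells fire action potentials, among them the ganglion cells, whose axons form the optic nerve. Ganglion cells depend on Nav1.6 (Scn8a), Nav1.1 (Scn1a) and Nav1.2 (Scn2a1) at the start of the axon. Photoreceptors and bipolar cells signal with graded potentials, shaped by delayed rectifiers with the silent subunit Kv8.2 (Kcnv2), by hyperpolarization-activated channels and by the L-type calcium channel Cav1.4 (Cacna1f) at their ribbon synapses. N6-methyladenosine (m6A) is a methyl mark on adenosines of mRNA, and an m6A peak is a stretch of a transcript with more immunoprecipitated than input reads.

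The input libraries held an estimated 3163302 fragments (TON 4) to 4759873 fragments (TON 5) in protein-coding genes. Rod markers summed to 20023 to 20769 FPKM in sham and 21341 to 21638 FPKM in TON, without overlap, and ganglion cell markers to 444 to 535 FPKM in sham and 471 to 557 FPKM in TON, so both were present in every library. Markers of neighbouring tissue varied between libraries within a group. The 4 ocular surface keratins (Krt5, Krt12, Krt13 and Krt15) summed to 174 FPKM in sham 1 against 2.24 to 26.0 FPKM in the other 5 libraries. The 5 skeletal muscle genes summed to 14.9 FPKM in TON 4 and 59.3 FPKM in TON 5 against 2.68 to 4.38 FPKM in the other 4. The 4 lens genes summed to 1579 to 3925 FPKM in sham, with sham 1 highest, and to 1276 to 2033 FPKM in TON. The part of these markers in the channel values was not tested. Of the markers of 16 cell types, 1 gene was called, the glial filament gene Gfap.

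Channel transcripts spanned a wide range of levels. The level is given in FPKM, fragments scaled to gene length and to library size. Of the 140 rows, 101 averaged 1 FPKM or more, 26 reached 20 FPKM and 10 reached 50 FPKM, while 13 were listed at 0 in every library. The share at 1 FPKM or more was 72.1%, against 57.1% of all genes. Levels were concentrated in few genes, the 10 most abundant holding 49.8% of the summed channel FPKM. Cacna1f (ENSRNOG00000010348), at a mean of 118 FPKM, was above Kcnj14 in 6 of 6 libraries, so this step of the order was larger than the spread over samples. The next steps were not fixed. Kcnj14 (ENSRNOG00000021056), an inward rectifier, was above Cacnb2 in 5 libraries of 6, Cacnb2 above Cacna2d4 in 4, and Cacna2d4 above Kcnv2 in 4.

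**Figure D1:**
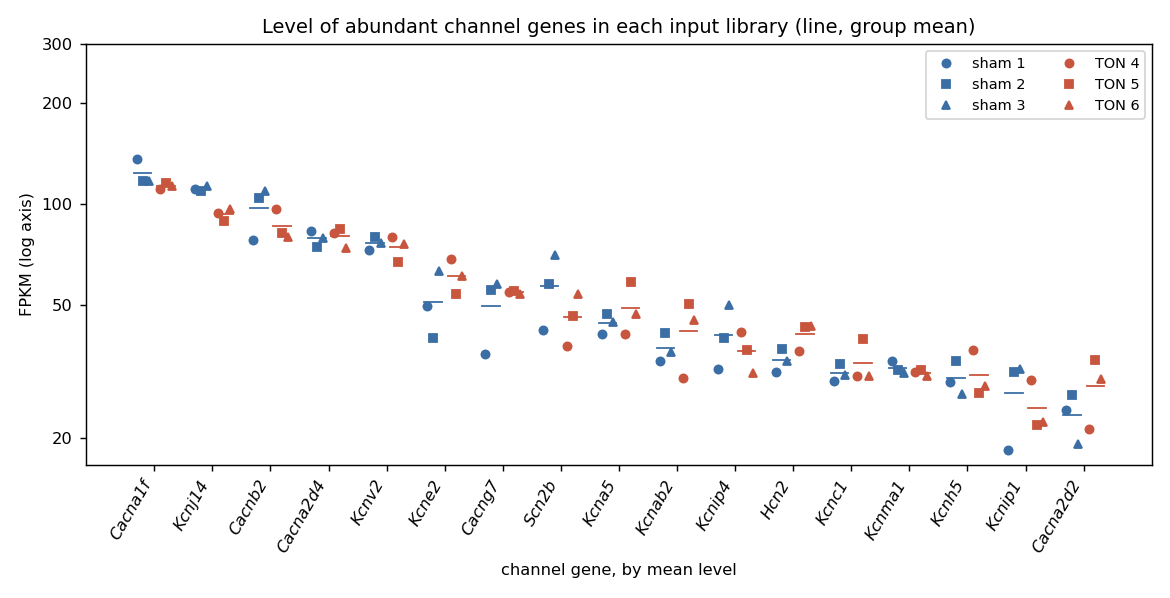
FPKM (log axis) of 17 abundant channel genes, 1 point per input library (blue, sham; red, TON) with a line at each group mean. Cacna1f and Kcnj14 have their 3 TON points below their 3 sham points, and most other genes overlap.

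Of the other abundant genes, Cacnb2, Cacna2d4 and Kcnv2 are known from the photoreceptor and its synapse, but their cell of origin was not tested. Cacnb2, the beta subunit of the retinal L-type channel, had 77.9, 104 and 109 FPKM in sham and 96.2, 81.8 and 79.9 FPKM in TON. Cacna2d4, its alpha2delta subunit, had 83.2, 74.5 and 78.9 FPKM in sham and 81.8, 84.2 and 73.7 FPKM in TON. Kcnv2, which forms no channel by itself and modifies other Kv subunits, had 73.0, 79.4 and 76.5 FPKM in sham and 79.8, 67.0 and 76.0 FPKM in TON. In all of these genes the sham and TON values overlapped. Next came Kcne2, a small regulator of potassium channels, at a mean of 55.9 FPKM, Cacng7, a transmembrane AMPA receptor regulatory protein, at 52.0 FPKM, Scn2b, a sodium channel beta subunit, at 51.3 FPKM, and the Shaker-type channel Kcna5 at 46.5 FPKM. Kcnv2 was above Kcne2 in 6 of 6 libraries, while the order of Kcne2, Cacng7, Scn2b and Kcna5 changed from library to library.

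The promoters of 3 abundant channel genes of different families are shown because they differ in the letters they hold. RefSeq promoter windows (assembly GRCr8) were matched to 90 of the 137 names, 2 of them by a newer symbol. Each sequence is the 250 bases before the transcription start, 5′ to 3′ on the gene's strand, with GC boxes (GGGCGG, either strand) and the homeodomain core TAATC (either strand) in capitals, the second motif having been added after the sequences were seen. The windows are Cacna1f at chrX:17568309-17568558 (minus strand), Kcnv2 at chr1:234412924-234413173 (plus strand) and Kcnj14 at chr1:105437259-105437508 (minus strand).
Cacna1f: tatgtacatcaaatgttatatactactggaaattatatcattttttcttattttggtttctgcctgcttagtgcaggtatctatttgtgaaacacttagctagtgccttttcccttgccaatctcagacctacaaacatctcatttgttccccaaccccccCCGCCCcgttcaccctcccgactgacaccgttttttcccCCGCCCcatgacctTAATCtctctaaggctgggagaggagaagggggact
Kcnv2: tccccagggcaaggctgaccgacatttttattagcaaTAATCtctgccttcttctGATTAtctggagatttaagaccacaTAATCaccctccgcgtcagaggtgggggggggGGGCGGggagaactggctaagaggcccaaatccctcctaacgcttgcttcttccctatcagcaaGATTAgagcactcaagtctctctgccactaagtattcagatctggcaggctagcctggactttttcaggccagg
Kcnj14: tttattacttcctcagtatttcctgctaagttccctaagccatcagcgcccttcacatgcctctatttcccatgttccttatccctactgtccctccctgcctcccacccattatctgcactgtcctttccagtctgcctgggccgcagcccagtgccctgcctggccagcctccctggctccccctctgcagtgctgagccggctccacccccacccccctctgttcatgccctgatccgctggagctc
The Cacna1f window holds 2 GC boxes and 1 TAATC core, the Kcnv2 window 1 GC box and 4 cores, and the Kcnj14 window 0 of either. Over the channel genes, a GC box was found in 44 of 90 windows (48.9%) and in 33.5% of the 27457 genes in the reference. TAATC was found in 13 (14.4%, against 21.7%), the AP-1 motif TGANTCA in 3 (3.33%, against 6.99%) and the cAMP response element TGACGTCA in 0 (against 1.78%). These are matches of letters only.

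Whether channel transcripts changed 12 h after the clamp was tested by limma across all genes that averaged 0.1 FPKM or more in sham or in TON. Of 121 channel genes tested, 0 were called at an adjusted p under 0.05, where 0.044% of all 15900 genes were called (7 genes). At an unadjusted p under 0.05 there were 6 channel genes (4.96%, against 10.4% of all genes), 5 of them higher (among them Kcnt1, Kcnab3, Cacna1h and Kcns2) and 1 lower (Kcnj14) in TON. The median difference was 0.07 on the log2(FPKM + 1) scale over the channel genes and 0.06 over all genes, and 60.3% of channel genes and 58.7% of all genes had a positive difference. The 95% interval of the difference lay within -1 to 1 on this scale in 102 of the 121 and reached past one of these limits in the others. The median distance from the estimate to the end of its interval was 0.49 for the genes at 1 FPKM or more. The 19 rows not tested were listed at 0 in every library (13) or were above 0 in some library with low means (6). Among channel genes of at least 1 FPKM, the groups did not overlap in 8 that were higher in TON (7.92%, against 12.0% of all genes at that level) and in 4 that were lower (3.96%, against 5.73%). Over all channel genes tested the counts were 10 and 5, where the groups did not overlap in 10.8% and 5.33% of all genes. In all of the settings tried, 0 channel genes were called, and the number at an unadjusted p under 0.05 ranged from 3 (without TON 5) to 13 (without TON 4).

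**Figure D2:**
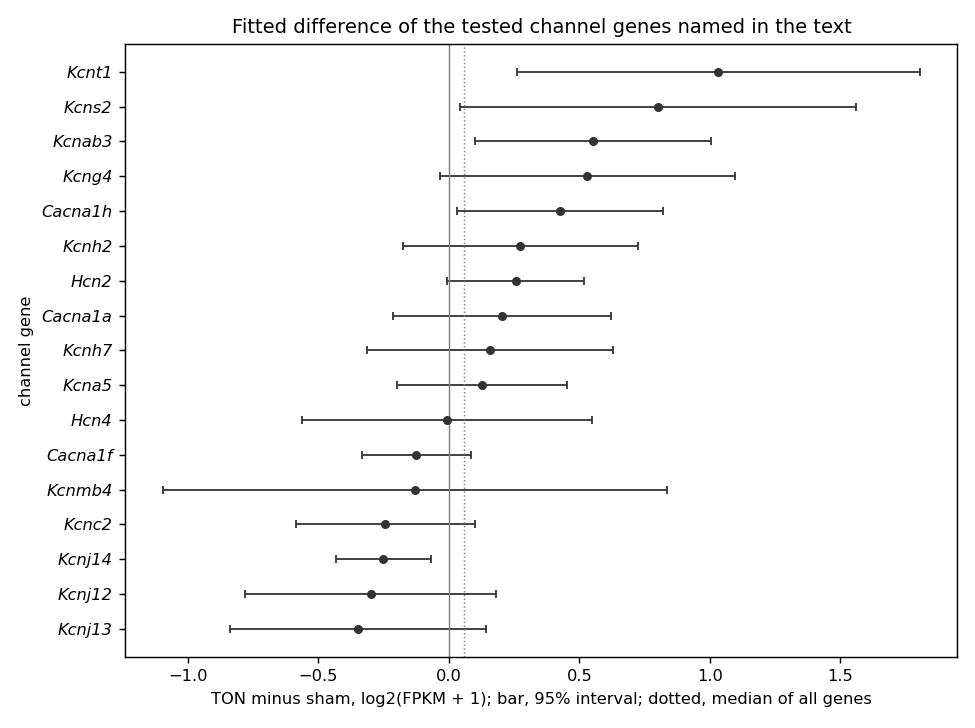
Fitted difference (TON minus sham, log2(FPKM + 1)) of the 17 channel genes whose difference is printed, with 95% intervals; the dotted line is the median of all genes. Kcnt1 has the highest estimate (1.03), most intervals reach 0, and that of Kcnj14 is among the narrowest.

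The hyperpolarization-activated channels (Hcn), which carry a depolarizing current when the membrane hyperpolarizes, had 4 members, all tested and 0 called. Hcn2, found in bipolar cells, had 31.4, 36.8 and 34.0 FPKM in sham and 36.5, 43.0 and 43.3 FPKM in TON. Only the lowest TON value fell under the highest sham value (difference 0.26, SE 0.11, adjusted p = 0.498). Hcn3 had 9.02, 10.8 and 10.1 FPKM in sham and 8.94, 11.8 and 17.0 FPKM in TON, so that the TON samples spanned the sham range.

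The inward rectifiers (Kcnj, here without Kcnj10), which hold the resting potential near that of potassium, had lower sums in TON, with 0 members called. Their sums were 173, 176 and 184 FPKM in sham and 153, 146 and 155 FPKM in TON, so that every TON library was below every sham library. Of the 11 tested, 8 had a negative difference, and the family median was -0.25. Kcnj14 (Kir2.4) held 62.1% of the sum. It had 111, 109 and 113 FPKM in sham and 93.9, 89.0 and 96.6 FPKM in TON, and every TON value was lower. The difference was -0.25 (SE 0.08, 95% interval -0.43 to -0.07), with an adjusted p of 0.391, and did not pass. Without Kcnj14 the other Kcnj genes summed to 62.0, 66.1 and 71.3 FPKM in sham and 59.3, 57.4 and 58.4 FPKM in TON, so this remainder did not overlap either. Kcnj12 (Kir2.2) had 6.56, 6.29 and 7.23 FPKM in sham and 6.07, 4.34 and 5.43 FPKM in TON. The nearest values of the groups were 0.218 FPKM apart (difference -0.30, SE 0.21, adjusted p = 0.663). Kcnj13 (Kir7.1), a channel of the retinal pigment epithelium, had 11.6, 12.2 and 18.5 FPKM in sham and 11.2, 11.8 and 9.08 FPKM in TON, with sham 3 highest (difference -0.35, SE 0.21, adjusted p = 0.610). The 4 pigment epithelium markers (Rpe65, Best1, Lrat and Ttr) summed to 282, 358 and 560 FPKM in sham and 364, 400 and 289 FPKM in TON and were also highest in sham 3, and their part in the Kcnj13 values was not tested. Kcnj9, a G-protein-gated subunit, had 14.3 to 18.3 FPKM in sham and 16.1 to 16.7 FPKM in TON, inside the sham range.

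**Figure D3:**
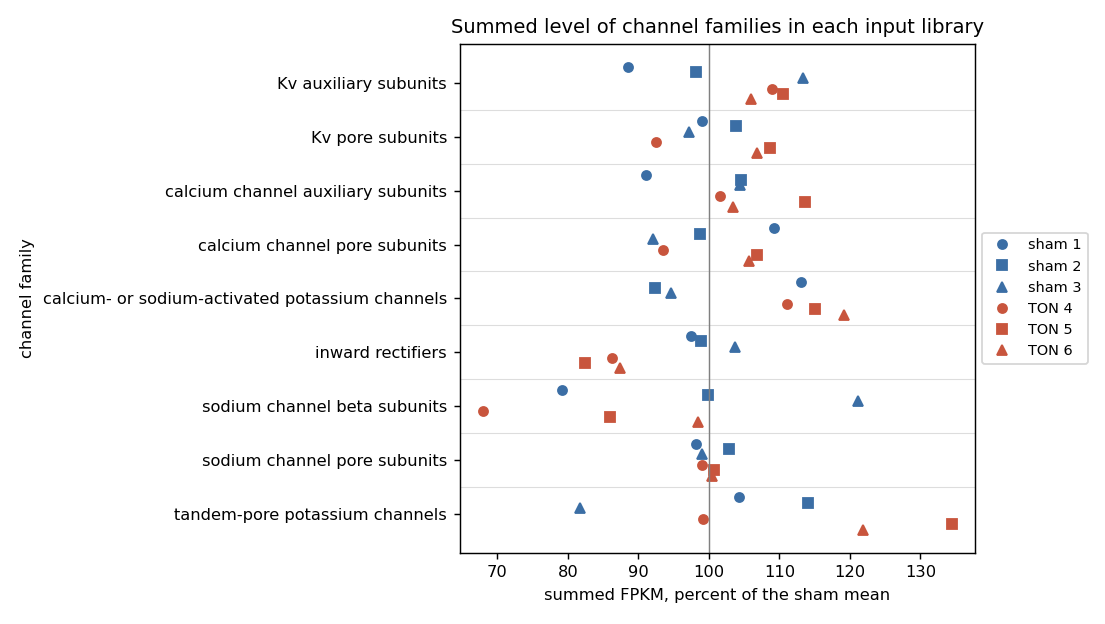
Summed FPKM of 9 channel families in each input library, in percent of the family's sham mean (blue, sham; red, TON). The 3 TON points lie between 82.5 and 87.3 percent for inward rectifiers (without Kcnj10), below their sham points. The groups overlap in the other 8 families shown, and the Hcn family is not shown.

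Voltage-gated potassium channel (Kv) pore subunits, the largest family with 40 genes, showed no common direction. Of 37 tested, 19 had a positive and 18 a negative difference, with a median of 0.01. Among the less abundant, Kcns2, a silent subunit that modifies other Kv channels, had 1.87, 0.421 and 1.29 FPKM in sham and 1.87, 2.92 and 3.37 FPKM in TON. Its groups were separate only in the third digit, the nearest values being 0.0056 FPKM apart, and rested on 3 to 21 fragments per library (difference 0.80, SE 0.33, adjusted p = 0.469). Kcng4, another silent subunit, had 1.81, 0.989 and 1.14 FPKM in sham and 2.12, 2.69 and 2.13 FPKM in TON, with no overlap (difference 0.53, SE 0.24, adjusted p = 0.510). Kcnc2 (Kv3.2), one of the fast-spiking channels, had 12.4, 15.1 and 14.9 FPKM in sham and 12.2, 11.8 and 11.3 FPKM in TON, all TON values being lower (difference -0.24, SE 0.15, adjusted p = 0.610). Kcna5 had 41.0, 46.9 and 44.5 FPKM in sham and 40.8, 58.6 and 46.9 FPKM in TON, with TON 5 highest and the rest mixed (difference 0.13, SE 0.14, adjusted p = 0.772).

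The auxiliary subunits of Kv channels bind the pore from the cytoplasm or the membrane. Of the 13 genes, 9 had a positive difference and the median was 0.14. Kcnab3, a cytoplasmic beta subunit, had 6.40, 5.35 and 4.61 FPKM in sham and 8.55, 8.36 and 8.34 FPKM in TON. The TON values lay close together and all above sham, with a gap of 1.94 FPKM (difference 0.55, SE 0.20, adjusted p = 0.433). Kcnab2, the most abundant beta subunit, had 33.9, 41.1 and 36.1 FPKM in sham and 30.2, 50.1 and 45.1 FPKM in TON. Kcnip4, a calcium-binding partner of Kv4 channels, had 32.2, 39.8 and 49.8 FPKM in sham and 41.3, 36.6 and 31.2 FPKM in TON. In both of these genes the groups overlapped. Kcne2 had 49.7, 39.9 and 62.9 FPKM in sham and 68.4, 53.9 and 61.0 FPKM in TON, with sham 3 among the TON values.

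Potassium channels gated by intracellular calcium or sodium link firing to recovery. The sodium-activated channel Kcnt1 (Slack) had the largest estimate of any channel gene of at least 1 FPKM, with 4.95, 2.48 and 2.01 FPKM in sham and 8.28, 4.97 and 8.65 FPKM in TON. The groups did not overlap, but TON 5 exceeded sham 1 by only 0.0173 FPKM. The difference was 1.03 (SE 0.33, 95% interval 0.26 to 1.80), with an adjusted p of 0.406, and did not pass. Kcnma1, the large-conductance calcium-activated channel, stayed within narrow limits at 34.0, 32.0 and 31.3 FPKM in sham and 31.5, 31.8 and 30.6 FPKM in TON. Kcnn1, a small-conductance channel, had 7.25, 5.97 and 4.57 FPKM in sham and 11.0, 10.7 and 4.85 FPKM in TON, so that TON 6 lay with the sham samples. Kcnmb4, the neuronal beta subunit of Kcnma1, had 9.21, 3.41 and 6.84 FPKM in sham and 2.85, 7.19 and 7.54 FPKM in TON, a spread within each group that was wider than the difference between them (difference -0.13, SE 0.42, adjusted p = 0.926).

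Tandem-pore potassium channels (Kcnk) set the leak conductance. Of their 16 rows, 6 reached 1 FPKM and 9 were tested, with a median difference of 0.01. Kcnk1 had 12.7, 12.2 and 7.43 FPKM in sham and 12.3, 14.0 and 13.5 FPKM in TON, sham 3 being the low one. Kcnk3 had 5.83 to 10.6 FPKM in sham and 7.54 to 10.7 FPKM in TON, and Kcnk9 3.59 to 5.01 FPKM in sham and 2.92 to 6.14 FPKM in TON. The groups overlapped in each of the 3.

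Calcium channel pore subunits included 9 genes of at least 1 FPKM, and 9 of the 10 tested had a positive difference, with a median of 0.16. The exception was the most abundant. Cacna1f had 136, 117 and 117 FPKM in sham and 110, 115 and 113 FPKM in TON. All TON values were lower, the nearest by 1.67 FPKM, and sham 1 was the high one (difference -0.13, SE 0.09, 95% interval -0.33 to 0.08, adjusted p = 0.677). Cacna1h, a T-type channel that opens at low voltage, had 12.3, 12.7 and 12.4 FPKM in sham and 13.6, 20.0 and 18.3 FPKM in TON. Its sham values agreed closely and all TON values were higher (difference 0.43, SE 0.17, adjusted p = 0.463). Cacna1g, another T-type channel, had 22.3, 20.1 and 18.7 FPKM in sham and 16.8, 26.2 and 24.8 FPKM in TON, TON 4 being lowest of all. Cacna1d, the L-type channel Cav1.3, had 18.5, 16.4 and 12.6 FPKM in sham and 17.0, 17.3 and 18.3 FPKM in TON. Cacna1a, the P/Q-type channel of conventional synapses, had 13.7, 15.1 and 10.9 FPKM in sham and 12.7, 16.6 and 16.9 FPKM in TON, with overlap (difference 0.20, SE 0.18, adjusted p = 0.723). The genes grouped by symbol as calcium channel auxiliary subunits (Cacna2d, Cacnb and Cacng) had a median difference of 0.23, with 12 of 14 positive and 0 called. This group mixes roles, since Cacng genes such as Cacng7 encode AMPA receptor regulatory proteins. The differences of the tested Cacng genes ran from 0.16 to 0.55, and those of the Cacna2d and Cacnb genes from -0.16 to 0.34.

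Of the 13 sodium channel genes tested, 0 were called. The pore subunits summed to 43.5, 45.5 and 43.8 FPKM in sham and 43.8, 44.6 and 44.4 FPKM in TON, a mean of 44.3 FPKM in both. Scn8a, the nodal and initial segment channel, had 15.9, 18.0 and 18.0 FPKM in sham and 15.0, 18.7 and 18.9 FPKM in TON. Scn2a1 had 10.9, 10.5 and 9.09 FPKM in sham and 10.3, 9.74 and 10.2 FPKM in TON. Scn1a had 6.48, 7.48 and 7.81 FPKM in sham and 6.55, 5.92 and 3.78 FPKM in TON, with TON 6 lowest and TON 4 inside the sham range. Scn3a had 5.77, 6.32 and 5.05 FPKM in sham and 7.10, 6.50 and 6.80 FPKM in TON, every TON value being higher, and did not pass (adjusted p = 0.721). These genes are close paralogs, so reads of one may have been assigned to another. The beta subunits, small adhesion-type proteins that modulate the pore, overlapped between groups: Scn2b had 42.0, 57.6 and 70.5 FPKM in sham and 37.5, 46.3 and 53.7 FPKM in TON, with sham 3 highest and TON 4 lowest. Scn3b had 10.8 to 13.5 FPKM in sham and 9.58 to 14.1 FPKM in TON. Among the ganglion cell markers, the sum given above overlapped between groups, but Thy1 had 89.2 to 98.6 FPKM in sham and 107 to 117 FPKM in TON and Pou4f1 had 2.62 to 5.32 FPKM in sham and 6.06 to 7.49 FPKM in TON, neither called (adjusted p = 0.429 and 0.411). The other markers, Rbpms, Sncg, Nefl, Pou4f2 and Slc17a6, overlapped between groups. Their differences were 0.42, -0.0024, -0.080, -0.0099 and 0.23, with none called. The part of the ganglion cell markers in the sodium channel values was not tested.

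Proteins that anchor, traffic or modulate these channels were taken from a list of 41 genes, of which 39 were in the table and 37 were tested, in 39 rows because Calm2 and Rims2 have more than 1 row each. Calm3 and Lrrc52 were listed at 0 in every library. The list holds ankyrin G (Ank3) and spectrins of the axon initial segment, fibroblast growth factor homologous factors, calcium-binding proteins and active zone scaffolds. Of the rows tested, 0 were called, the lowest adjusted p was 0.467 and the median difference was 0.04. An unadjusted p under 0.05 was reached by 3 rows, where 10.4% of all genes reached it. They were Cntn1 (difference 0.30), Erc2 (-0.25) and 1 row of Rims2 (-0.21), each without overlap between the groups. Ank3, which clusters sodium channels at the initial segment, had 81.0, 77.9 and 73.2 FPKM in sham and 69.6, 77.3 and 74.5 FPKM in TON, with overlap.

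The m6A peaks of channel genes were compared list by list, since the authors' peak calls were made for every sample by itself. The lists held 82, 72 and 70 channel peaks in sham and 115, 79 and 99 in TON. These lay in 49, 46 and 39 channel genes in sham and in 63, 44 and 57 in TON. The TON mean of genes with a peak was 54.7 ± 9.71 (SD, n = 3) and the sham mean 44.7 ± 5.13 (SD, n = 3), an excess of 22.4%, with TON 5 inside the sham range. Over all genes the excess was 5.53%. As a share of all peaks of the list, channel peaks made up 0.592%, 0.562% and 0.522% in sham and 0.808%, 0.603% and 0.797% in TON, without overlap, where TON 5 exceeded sham 1 narrowly. Channel peaks were longer than others, with median lengths in bases of 408, 386 and 321 for the sham lists and of 607, 446 and 680 for the TON lists. Over all genes the medians were 183 to 198 bases in the sham lists and 287, 201 and 300 bases in TON 4, TON 5 and TON 6, so TON 4 and TON 6 had longer peaks in general, and the part of peak length in the channel counts was not tested. With 3 lists against 3 the smallest p of an exact permutation test is 0.1, and no test was made on these sums. Among the top 50% of peaks of each list the excess in genes with a peak was 69.1%. Without sham 1 and TON 5, a pair chosen after the values were seen, it was 41.2%. Since sham 1 was the highest sham list and TON 5 the lowest TON list, leaving them out had to raise it.

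**Figure D4:**
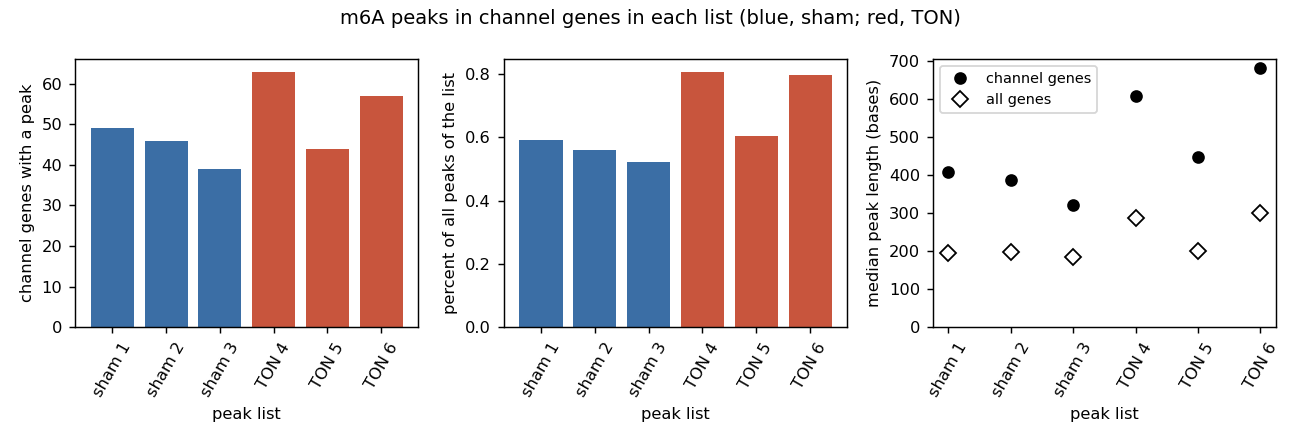
Channel genes with a peak (left), channel peaks in percent of all peaks (middle) and median peak length in bases (right; filled, channel genes; open, all genes) in each of the 6 peak lists (blue bars, sham; red bars, TON). TON 4 and TON 6 are highest in all 3 measures, and TON 5 lies nearer the sham lists.

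In total 79 of the 137 channel names (57.7%) carried a peak in at least 1 list, against 40.6% of all named genes. The gap was smaller among genes of at least 1 FPKM, where the shares were 76% of channel genes and 67% of all genes. The channel peaks merged into 172 regions, 32 of which (18.6%, against 21.4% over all genes) held a peak in all 6 lists and 56 (32.6%, against 28.2%) in a single list. Of the 116 channel regions in 2 or more lists, 89 (76.7%, against 85.8% over all genes) had identical bounds in those lists. The bounds of 4 channel regions were those of the whole locus, so a peak length need not be the extent of the enrichment. Of the 165 regions that overlap the locus of their gene, 37.0% had their midpoint in its last 10% or past its end. For 17.6% the midpoint lay in its first 10% or before its start, counted from the 5′ end. These shares were not computed over all genes. The position of the regions relative to exons was not computed, because no transcript models of the files' genome build were used here. In every sample the peaks were weakly supported by the authors' false discovery rate: 3 of the 517 channel peaks (0.58%) were at or under 5%, and so were 0.729% of the peaks of all genes.

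Scn1a carried the most m6A peaks of any channel gene under its own symbol. It held 44, namely 9, 8 and 7 for sham 1 to 3 and 7, 7 and 6 for TON 4 to 6, in 9 regions of which 5 were held by all 6 lists. The strongest of those regions lay on chromosome 3 from 59056539 to 59057021 (the rat build of the files is not stated), with an authors' fold enrichment of 9.29 to 30.1. Scn2a1 carries no peak under that symbol, but the peak lists name 39 peaks Scn2a, its newer symbol, with 6, 6 and 7 in sham and 6, 8 and 6 in TON, and 6 regions held in all 6 lists. Cacna2d2 followed with 20 peaks, Scn8a with 16, and Scn3a, Scn9a, Cacna1d and Kcnh5 with 15 each. By family, Kv pore subunits held 131 peaks and sodium channel pore subunits 92. The second count leaves out the 39 peaks named Scn2a, so these families are not ranked here. Within these sodium channel genes the counts of sham and TON lists overlapped. The ether-a-go-go-type channel Kcnh5 held the highest enrichment of any channel gene, in a region at its 3′ end on chromosome 6 from 107294666 to 107295885. Its fold enrichment was 24.9, 23.3 and 21.7 in sham and 55.6, 29.3 and 55.4 in TON, every TON value being higher, TON 5 least. The median fold over the peaks of all genes showed the same order, with 6.63, 7.16 and 6.955 in sham and 8.56, 7.21 and 9.635 in TON. The higher Kcnh5 values are therefore not particular to this gene in direction. These folds come from separate peak calls and were not tested. In total 25 channel genes held a region in all 6 lists under their own symbol. Among them were Kcnb2, Kcnn1 and Scn3a (2 each) and Cacna1d, Cacna1h, Cacna2d2, Cacng3 and Hcn2 (1 each). The Kcnb2 region from 3386869 to 3387536 on chromosome 5 lay outside the locus given for that gene.

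The genes with the most RNA were not those with the most peaks. Kcnj14, at a mean of 102 FPKM, held 2 peaks, in TON 4 and TON 6, Kcnv2 held 1 in TON 4, and Cacna1f, at 118 FPKM, and Cacng7 held 0. Over the 79 channel genes with a peak, Spearman's rho between mean FPKM and number of peaks was 0.12, given as a description over genes that share the same libraries. This value leaves out the genes without a peak. The share of channel genes with a peak was 8.11% under 1 FPKM and 53.3% at 1 to 5 FPKM. It was 88.6% at 5 to 20 FPKM and 80.8% at 20 FPKM or more. Over all genes the same shares were 4.42%, 41.6%, 73% and 74.8%.

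Regions held by all TON lists and by no sham list (gained) were found in 4 channel genes, 5.06% of the 79 with a peak, where 4.13% of all genes with a peak had one. Hcn4, the slowest-activating Hcn isoform, held 2 of them on chromosome 8, from 63388533 to 63388956 and from 63403735 to 63405310, the second at the 3′ end of its locus. The fold enrichment of the second was 15.6, 10.2 and 11.7 in TON 4 to 6. The level of Hcn4 did not differ beyond its spread, with 8.51, 8.33 and 9.10 FPKM in sham and 5.98, 9.09 and 11.5 FPKM in TON (difference -0.01, SE 0.24, adjusted p = 0.993). Cacna1a held 2 gained regions on chromosome 19, from 36653367 to 36653812 and, at the 3′ end, from 36725074 to 36726039. Kcna5 held 1 that spans its whole locus on chromosome 4 from 226075051 to 226076859, so its bounds are those of the gene. The last was in Kcnh7 on chromosome 3 from 55421810 to 55422235. The peaks in these gained regions had false discovery rates of 9.08% to 78.2%. Kcnh7, an ERG-type channel, had 7.45, 5.80 and 6.53 FPKM in sham and 7.24, 6.47 and 8.78 FPKM in TON, with overlap (difference 0.16, SE 0.20, adjusted p = 0.799).

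Regions held by all sham lists and by no TON list (lost) were found in 2 channel genes, 2.53% of the 79, where 4.48% of all genes with a peak had one. Kcnh2, the ERG channel of the heart rhythm that is also expressed in retina, held 1 on chromosome 4 from 7387095 to 7387306, with a fold enrichment of 5.76 to 6.82. Kcnh2 had 19.5, 21.2 and 16.8 FPKM in sham and 17.4, 25.2 and 28.8 FPKM in TON, so TON 5 and TON 6 were above all sham values and TON 4 was not (difference 0.27, SE 0.19, adjusted p = 0.673). Kcnmb4 held 2 on chromosome 7, from 59500410 to 59500537 and from 59525045 to 59525348, with fold enrichments of 6.28 to 8.59. The peaks in these lost regions had false discovery rates of 34.6% to 100%, with 100% in sham 3, so their support is weak. Both shares, of gained and of lost regions, are near those of all genes. The lists of genes also changed with the rule: with the top 50% of peaks of each list the gained genes were 5 others (Cacna2d1, Kcnd3, Kcnh1, Kcnh5 and Kcnk1) and 0 were lost. Leaving out 1 list, which loosens the rule, gave 7 gained genes without sham 1, 14 without TON 5 and 7 without TON 6, and 5, 5 and 4 lost genes without sham 1, sham 2 and sham 3.

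**Figure D5:**
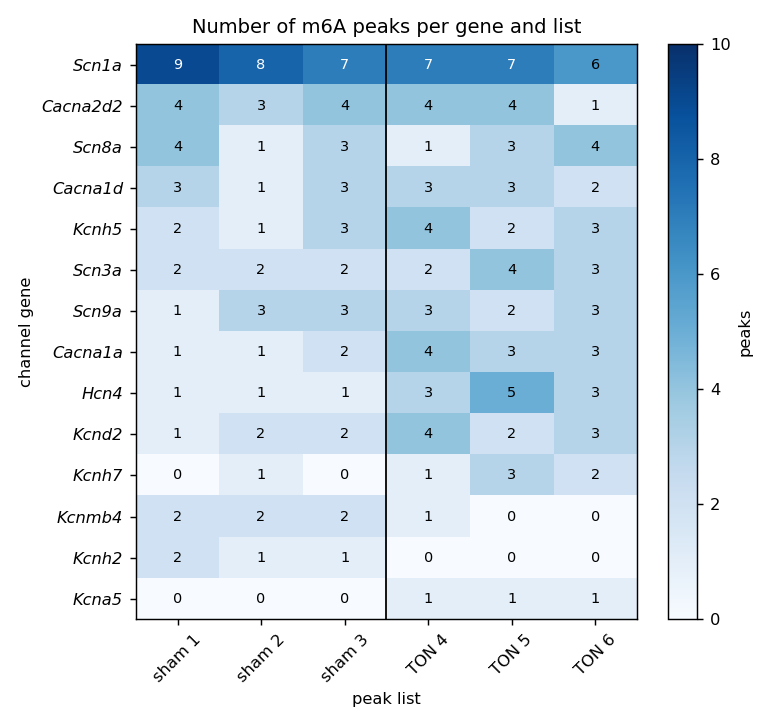
Number of m6A peaks in each list (columns, sham 1 to TON 6) for the 10 channel genes with the most peaks and the 6 with a gained or lost region, 14 genes in all. Scn1a has 6 to 9 peaks in every list, Kcna5 has 1 in each TON list and 0 in each sham list, and Kcnh2 has 1 or 2 in each sham list and 0 in each TON list.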

How the data were processed

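Input RNA and m6A-immunoprecipitated RNA of 12 libraries were used (6 of each). The authors trimmed reads with cutadapt 1.9.3, aligned them with HISAT2 2.0.4 and obtained gene levels with Cufflinks and Cuffdiff. FPKM per gene and library are in the deposited expression table, together with a deposited signal column that behaves as fragments rescaled by the authors between libraries. In each library 98.3% to 98.6% of its low values were whole multiples of 1 value (tolerance 0.1), which gave the depths printed. Since the remainder were not whole, no count model was applied. The deposited peak lists, made by the authors per sample with MACS, give each peak's length in bases, its false discovery rate in percent, its fold enrichment over input (a ratio) and a score that is -log10 of p multiplied by 10. The study's methods name a human genome build for the alignment although the samples are from rat, and the rat build behind the positions is not stated. The depth of the immunoprecipitated libraries is unknown, and the kits named for the libraries differ between sources.

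FPKM were compared on log2(FPKM + 1) with limma 3.58.1 in R 4.3.3 (intensity trend, Benjamini-Hochberg over all genes tested), a fit that was tested on simulated data. A fold on this scale understates changes of low genes. Peaks were handled in Python 3.11.15 with pandas 2.3.3 and NumPy 2.4.6, and peaks with at least 1 base in common became 1 region. Peak positions were converted to a start of 1. The channel genes, families, partner list, marker lists and the naming rule were chosen with earlier results of these data known. The rule named the 5 largest rises and falls without overlap at 1 FPKM or more, genes with a gained or lost region, the 3 most abundant of each family, genes of known retinal role, the 10 with the most peaks and up to 10 with a region in all lists. Some genes named by this rule are not reported here, in the text or the plots. Other names were chosen after their values were seen, and so were leaving out sham 1 with TON 5 and counting peaks under newer symbols. The alternatives were other pseudocounts (0.1 and 0.01) and filters, median centring, quantile normalization, no trend, scaled fragments, stricter peaks or overlap, whole genes, 2 of 3 lists, and leaving out each library.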

Additional observations from a re-analysis of the deposited data

How the results depend on the processing

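The count of channel genes called was 0 under each of the 14 other settings of the fit. The median difference of the channel genes was 0.07 and moved beyond the spread between libraries under median centring (-0.0069) and quantile normalization (-0.0061), which also moved the median of all genes (-0.023 and -0.00077), and without TON 4 (0.15). Over the settings that leave out a library it ranged from 0.026 to 0.15. Of 17 genes with a printed difference, 14 kept their sign in every setting. The sign turned when 1 library was left out for Hcn4 (-0.20 to 0.22; positive without sham 3 or TON 4), Kcna5 (-0.011 to 0.24; negative without TON 5) and Kcnmb4 (-0.47 to 0.24; positive without sham 1 or TON 4). The lowest adjusted p of any of these genes in any setting was 0.154.

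Gained regions were found in 4 to 14 channel genes and lost regions in 2 to 5 when 1 library was left out. Counting whole genes gave 1 and 1, a peak in 2 of 3 lists gave 19 and 9, and leaving out sham 1 and TON 5 gave 21 and 5. With the top 50% of peaks and with the same number of top peaks 0 were lost. The excess of channel genes with a peak in TON (22.4%) ranged from 13.1% to 34.3% when 1 library was left out and was 69.1% with the top 50% of peaks, 88.1% with the same number of top peaks and 41.2% without sham 1 and TON 5. The excess in the share of peaks (31.8%) ranged from 25.4% to 43.7% when 1 library was left out and was 77.7%, 91.5% and 48.2% under those same settings. Leaving out sham 1, the highest sham list, and TON 5, the lowest TON list, had to raise both excesses. The cause of the other moves was not tested. The 168 levels recomputed without 1 library, over 28 other named genes, moved by less than 1 SD.

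No paired analysis was possible because the groups share no replicate number (1 to 3 in sham, 4 to 6 in TON). Count models on recovered fragments were not run, because not all values were whole.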

Other observations

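Scn9a, a sodium channel of peripheral sensory neurons, averaged 0.599 FPKM of input RNA but held 15 m6A peaks, with 1, 3 and 3 in sham and 3, 2 and 3 in TON. Its locus neighbours that of Scn1a on chromosome 3, and 1 of its regions, from 59266380 to 59266586, was held by all 6 lists. Kcnn2, a small-conductance potassium channel, has a second row in the expression table with 2.04, 2.10 and 2.41 FPKM in sham and 0, 0.522 and 8.96 FPKM in TON, a spread in TON that its first row (4.58, 3.23 and 3.56 FPKM in sham, 4.02, 5.76 and 4.74 FPKM in TON) does not have. Cacna1f, Cacng4, Cacng7 and Kcnip4 carried no peak in any list although each averaged 20 FPKM or more.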
